A study of Mus musculus with 24 samples.

Results

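The S100 calcium-binding proteins were followed in the left ventricle of mice with and without hypertension-induced left ventricular hypertrophy (LVH). The members were 10 genes chosen by symbol from the 14912 genes of the expression table: S100a1, S100a4, S100a6, S100a8, S100a9, S100a10, S100a11, S100a13, S100a16 and S100b. The hypertensive-LVH group held 12 mice that were infused from osmotic mini-pumps under the skin with angiotensin II (ANG II), 1500 ng/kg/min over 7 days, and the control group held 12 mice that received saline for the same time. All were male C57BL/6J mice labelled WT, with no transgene, and their hearts were flushed with saline before the ventricle was taken. Their age is not given in the sources used here. ANG II acts on vessels and heart cells at the same time, so an effect of the peptide itself and an effect of the raised pressure cannot be told apart. Each sample was treated as a separate mouse, as the study's methods describe.

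S100 proteins are small proteins with paired EF-hand loops that bind calcium, open a hydrophobic face and then bind partner proteins. Most work as dimers inside the cell, and some are released and act on receptors such as RAGE (Ager) and TLR4 at the surface of other cells. In the heart, S100A1 of the cardiomyocyte is known to bind the ryanodine receptor and the calcium pump SERCA2a, S100A8 and S100A9 form calprotectin in neutrophils and monocytes, S100A4 and S100A6 are known from fibroblasts and immune cells, and S100B marks glia and adipocytes.

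In the GRCm38 annotation (GENCODE vM21), 7 members lay within 184.688 kb of chromosome 3. These were S100a1 (chr3:90511034-90514392, minus strand), S100a13 (chr3:90514435-90524581, plus), S100a16 (chr3:90537254-90543151, plus), S100a4 (chr3:90603771-90606045, plus), S100a6 (chr3:90612882-90624181, plus), S100a8 (chr3:90668978-90670035, plus) and S100a9 (chr3:90692632-90695721, minus). S100a11 (chr3:93520488-93526287, plus) and S100a10 (chr3:93555080-93564643, plus) lay farther along the same chromosome, within 44.156 kb of each other. S100b was on chromosome 10 (chr10:76253853-76261159, plus). All 10 are annotated as protein coding. The exons of S100a4 share 302 bases with Gm42674 on the same strand, so the level of S100a4 is uncertain to the extent that reads were divided between them. S100b overlaps Dip2a on the opposite strand with 0 exonic bases in common.

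Upstream sequences are shown for S100a8 and S100a9, whose levels moved together from sample to sample, for S100a11, which rose, and for the stretch between S100a1 and S100a13, neighbours of which S100a13 rose and S100a1 had a lower mean that did not pass the test. They are from RefSeq (GRCm38.p6), which held a window for 9 of the 10 members, and the 3 upstream sequences are taken from the 250 bases before the RefSeq start, read along the strand of the gene. For S100a8 and S100a11 this start lies inside the GENCODE gene given above, and only the bases before that gene are printed. Capitals mark a C/EBP match (TTGCNNAA) in S100a9 and AP-1 matches (TGANTCA) in S100a11. No other motif is marked.
S100a8 (chr3:90668821-90668977, plus): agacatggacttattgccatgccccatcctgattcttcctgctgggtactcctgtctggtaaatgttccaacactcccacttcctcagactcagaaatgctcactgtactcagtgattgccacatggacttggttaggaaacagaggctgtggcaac
S100a9 (chr3:90695722-90695971, minus): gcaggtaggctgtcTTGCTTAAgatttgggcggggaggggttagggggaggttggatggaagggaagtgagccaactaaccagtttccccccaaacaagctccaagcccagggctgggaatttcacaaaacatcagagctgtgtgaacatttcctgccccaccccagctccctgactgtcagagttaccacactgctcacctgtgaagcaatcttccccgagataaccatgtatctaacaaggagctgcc
S100a11 (chr3:93520246-93520487, plus): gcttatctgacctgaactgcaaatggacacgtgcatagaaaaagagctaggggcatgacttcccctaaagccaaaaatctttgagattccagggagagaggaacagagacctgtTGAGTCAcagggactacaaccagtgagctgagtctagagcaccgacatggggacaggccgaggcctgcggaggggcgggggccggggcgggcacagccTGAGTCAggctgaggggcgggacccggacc
S100a1 and S100a13 (chr3:90514393-90514434, plus): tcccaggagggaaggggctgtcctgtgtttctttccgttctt

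S100a1 and S100a13 stand head to head, with these 42 bases between their 5′ ends in GENCODE. The start of S100a1 in RefSeq lies farther inside the gene. Each motif was searched on both strands in windows of 300 bases, 250 before and 50 after the start. TATAAA was found in 3 of the 9 windows (S100a4, S100a8, where it lies past the printed bases, and, beginning at the RefSeq start itself, S100a9) and in 13.6% of 32851 windows of all genes. TGANTCA was found in S100a11 only, 2 times, and in 7.81% of all windows. TTGCNNAA was found in S100a9 only and in 10.8% of all windows. The GC box GGGCGG was found in S100a9 and S100a11 and in 35.7% of all windows, and the TEAD motif GGAATG in 0 of the 9 and in 14.7% of all windows. These matches describe the letters and not the binding of a factor.

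Expression is given as FPKM, fragments per length of transcript and per depth of the library. Unadjusted FPKM can be set side by side between genes because it is per length. The deposited values had been adjusted gene by gene in 4 sets, made of samples 1 to 3, 4 to 6, 7 to 9 and 10 to 12 of each group, so that some values are below 0. Levels compared between genes below are of these adjusted values, and how far the adjustment moved them against each other is not known. A hypertensive-LVH sample summed to between 460715 and 515185 and a control sample to between 482319 and 567727, and correlations between samples from 0.939 to 0.996. Read depth is not known. The 10 markers of cardiomyocytes summed to between 37529 and 63045 FPKM, which fits the labelled tissue.

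In the control ventricle S100a1 was by far the highest member, with a mean of 1046 ± 153 FPKM (SD, n = 12). S100a11 (93.5 ± 34.3), S100a10 (48.1 ± 9.82), S100a16 (45.4 ± 7.00), S100a6 (31.4 ± 10.9) and S100a13 (29.5 ± 3.00) followed. S100a9 (5.49 ± 6.18), S100a4 (5.43 ± 4.27), S100a8 (2.72 ± 3.10) and S100b (0.873 ± 0.354) were the lowest. Neighbours in this order were compared on log2(FPKM + 1) with an exact sign-flip permutation test over the 12 samples, two-sided and adjusted over the 9 pairs. S100a1 exceeded S100a11, S100a11 exceeded S100a10, S100a16 exceeded S100a6 and S100a13 exceeded S100a9, each in 12 of 12 samples (adjusted exact p = 0.0011). S100a8 exceeded S100b in 9 of 12 (adjusted exact p = 0.0422). S100a10 and S100a16, S100a6 and S100a13, S100a9 and S100a4, and S100a4 and S100a8 did not differ beyond their spread (adjusted exact p = 0.470, 0.964, 0.964 and 0.186).

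**Figure D1:**
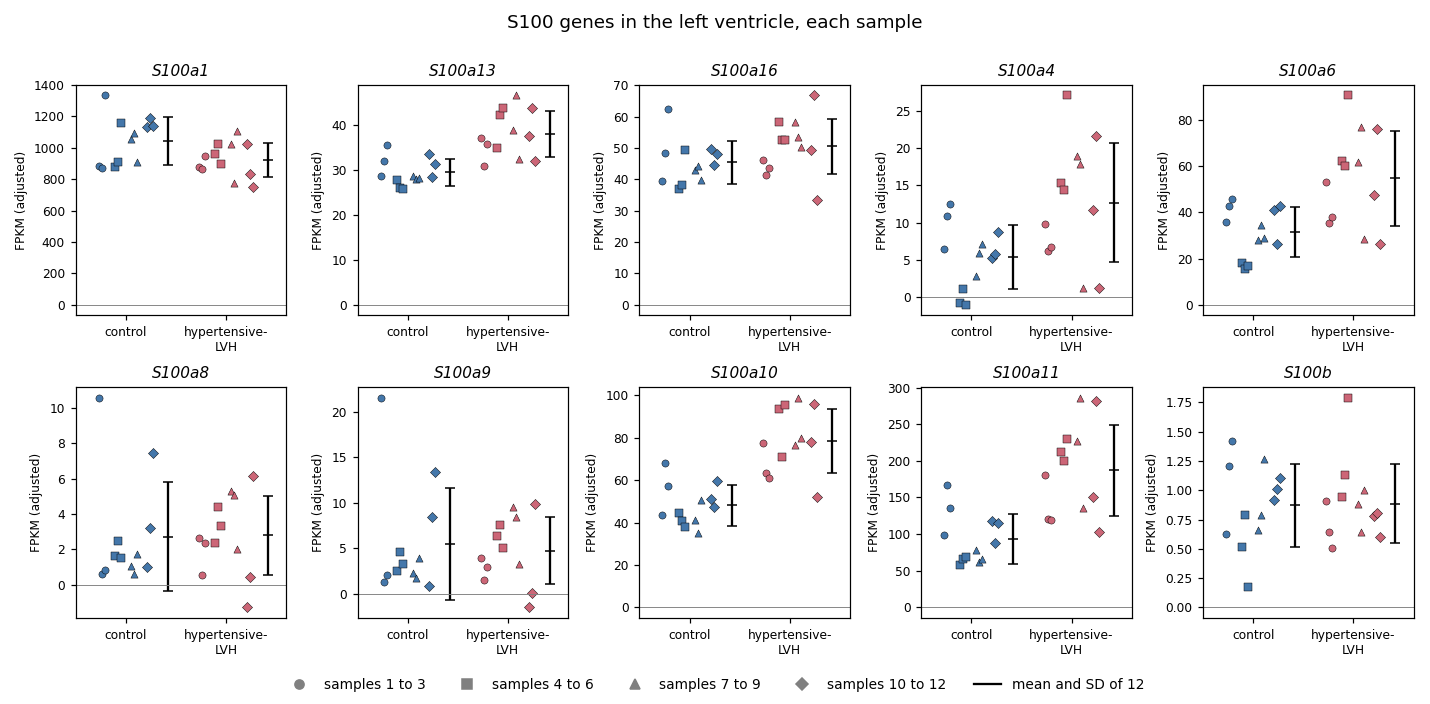
FPKM of each member (vertical axis, adjusted values as deposited, 1 scale per panel) in the 12 control and the 12 hypertensive-LVH samples, with symbols for the 4 sets and the mean and SD of each group at its right. The hypertensive-LVH samples of S100a10, S100a11 and S100a13 all lie above the control median, and those of S100a8, S100a9 and S100b are mixed with the controls.

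To find which members changed with ANG II, the groups were compared with limma on log2(FPKM + 1) over 14026 genes with a mean of at least 0.1 FPKM, and p-values were adjusted over all of them by the Benjamini-Hochberg method. Of the 10 members, 4 rose with an adjusted p under 0.05, S100a6, S100a10, S100a11 and S100a13, and 0 fell. Among all genes tested, 20.9% rose and 12.6% fell by this rule. With an absolute log2 fold change over 0.5 as well, 3 members were DEGs (S100a6, S100a10 and S100a11), all upregulated. Of all genes, 5.92% were DEGs, 4.52% upregulated and 1.4% downregulated. The median log2 fold change was 0.25 over the members and 0.05 over all genes tested. In bulk tissue, a change in the number of cells of a type and a change in RNA per cell cannot be told apart.

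S100a10, also called p11, binds annexin A2, carries it and channels to the cell surface, and serves plasminogen activators there. Its FPKM ran from 52.0 through a median of 77.7 to 98.8 with ANG II and from 34.9 through 45.8 to 68.2 in the control group. All 12 hypertensive-LVH samples lay above the control median and 9 lay above the highest control. The means were 78.6 ± 15.2 and 48.1 ± 9.82 FPKM, a ratio of 1.63. The log2 fold change was 0.70 ± 0.11 (SE), with a limma adjusted p of 4.9e-05.

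S100a11 binds annexin A1 and takes part in membrane repair and growth control. Its FPKM ran from 102 through 190 to 286 with ANG II and from 57.3 through 83.2 to 167 in the control group. Again all 12 samples of the hypertensive-LVH group lay above the control median, and 7 lay above the highest control. The mean doubled from 93.5 ± 34.3 to 187 ± 62.5 FPKM, a ratio of 2.00, and the log2 fold change was 1.00 ± 0.19 (limma adjusted p = 3.36e-04). S100a11 was the second most abundant member in both groups.

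S100a6, known as calcyclin for its rise in dividing cells, ran from 26.3 through 56.5 to 90.7 FPKM with ANG II and from 15.4 through 31.7 to 46.0 in the control group. The groups overlapped, with 10 hypertensive-LVH samples above the control median and 8 above the highest control. The mean was 1.74 times that of the controls, and the log2 fold change was 0.77 ± 0.21 (limma adjusted p = 0.00727). Without samples 4 to 6 of each group the log2 fold change was 0.36 and did not pass the test (limma adjusted p = 0.199).

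S100a13, which is known to carry FGF1 and IL-1α out of cells without a signal peptide, ran from 30.8 through 37.3 to 46.6 FPKM with ANG II and from 25.7 through 28.6 to 35.6 in the control group. All 12 hypertensive-LVH samples lay above the control median and 8 above the highest control. Its rise was small, with a ratio of means of 1.29 and a log2 fold change of 0.35 ± 0.07 (limma adjusted p = 3.56e-04), under the fold change threshold of a DEG.

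S100a4, also called metastasin or fibroblast-specific protein, had a wide spread. It ran from 1.25 through 13.1 to 27.1 FPKM with ANG II and from -0.991 through 5.90 to 12.5 in the control group, where 2 samples, both of samples 4 to 6, were below 0. In the hypertensive-LVH group 10 samples lay above the control median and 6 above the highest control, and replicates 9 and 12 lay at 1.31 and 1.25. The ratio of means was 2.34, the largest of the members. The log2 fold change of 1.11 ± 0.48 did not pass the test over all genes (limma adjusted p = 0.0720), and with a pseudocount of 0.1 in place of 1 it was 1.67. Without hypertensive-LVH replicate 9 it was 1.32 (limma adjusted p = 0.0274), without replicate 12 it was 1.32 (0.0276) and without control replicate 2 it was 1.23 (0.0486). Without samples 4 to 6 it was 0.18 (0.791).

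S100a1, the cardiomyocyte member that raises the uptake and release of calcium, had a lower mean in the hypertensive-LVH group. It ran from 749 through 922 to 1106 FPKM with ANG II and from 872 through 1073 to 1334 in the control group. Only 1 hypertensive-LVH sample lay above the control median, 4 lay below the lowest control and 5 controls lay above the highest hypertensive-LVH sample. The ratio of means was 0.882 and the log2 fold change -0.18 ± 0.08 (limma adjusted p = 0.0845). After quantile normalization it was 0.0016 (limma adjusted p = 0.985), and without hypertensive-LVH replicate 9 it was -0.20 (0.0485). S100a1 supplied between 70.0% and 85.1% of the summed FPKM of the 10 members in the control samples and between 56.6% and 76.7% in the hypertensive-LVH samples. The sum itself was 1308 ± 181 FPKM in the control and 1353 ± 147 in the hypertensive-LVH group (n = 12 each).

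The calprotectin genes did not separate the groups. S100a8 ran from -1.28 through 2.52 to 6.17 FPKM with ANG II and from 0.597 through 1.58 to 10.6 in the control group, and S100a9 from -1.51 through 4.44 to 9.92 and from 0.878 through 2.87 to 21.5. For both genes 9 hypertensive-LVH samples lay above the control median, yet the 2 highest samples of all were controls, replicates 1 and 12. The log2 fold changes were 0.15 ± 0.35 for S100a8 and -0.06 ± 0.43 for S100a9 (limma adjusted p = 0.754 and 0.928). The direction of S100a9 turned positive without control replicate 1, 11 or 12 or without hypertensive-LVH replicate 2, 10 or 11, with values from 0.02 to 0.14.

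S100a16, a broadly expressed member, ran from 33.5 through 51.5 to 66.8 FPKM with ANG II and from 36.9 through 44.4 to 62.4 in the control group, with a log2 fold change of 0.15 ± 0.09 (limma adjusted p = 0.213). S100b was near 1 FPKM in both groups, from 0.504 through 0.845 to 1.79 and from 0.171 through 0.855 to 1.42, with a log2 fold change of 0.02 ± 0.10 (limma adjusted p = 0.912). Its sign turned negative without control replicate 4 or 6 or hypertensive-LVH replicate 5 or 6. Of the S100 genes outside the 10, S100a7a had a mean of 0.478 FPKM in the hypertensive-LVH and 0.345 in the control group (log2 fold change 0.14, limma adjusted p = 0.130), and S100a14, at 0.062 and 0.040, was too low to be tested.

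The size of the difference varied between the sets of samples, for 3 of the members beyond the spread within sets (tested below). The 4 sets were therefore compared within themselves. On the log2 scale, S100a10 differed between the groups by 0.27, 1.05, 1.00 and 0.47 for samples 1 to 3, 4 to 6, 7 to 9 and 10 to 12. S100a11 differed by 0.07, 1.73, 1.58 and 0.61 in the same order, and S100a13 by 0.10, 0.58, 0.44 and 0.26. These 3 members were higher in the hypertensive-LVH group in every set, as were 21.8% of all genes tested. S100a1 was lower in every set, by -0.17, -0.02, -0.09 and -0.42, as were 12.8% of all genes. S100a4 differed by -0.33, 3.91, 0.66 and 0.21, so that most of its difference came from samples 4 to 6. There 2 control values were below 0 and were set to 0 for the log, so the size of 3.91 depends on the floor. Without a log the differences in the same order were -2.35, 19.1, 7.41 and 4.89 FPKM.

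The difference between the sets was tested as an interaction of group and set in limma, with 3 mice per group in a set and p-values adjusted over all genes. It passed for 3 of the 10 members, S100a4 (adjusted p = 0.0337), S100a6 (0.0322) and S100a11 (0.0294), and for 7.49% of all genes. S100b (0.0517) and S100a10 (0.133) did not pass, nor did the other 5 members, with adjusted p from 0.238 to 0.550. The interaction was tested on the deposited values only. The scale factors recovered from these values ran from 0.598 to 1.73 over the members and sets.

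**Figure D2:**
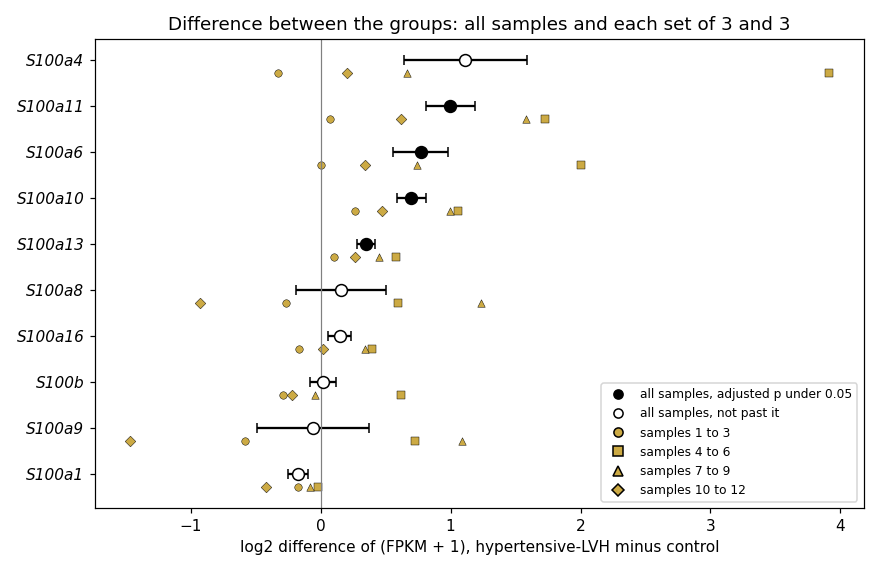
Difference of log2(FPKM + 1) between the hypertensive-LVH and the control group (horizontal axis) for each member, over all samples with its SE (circles, filled where the adjusted p was under 0.05) and within each set of 3 and 3 samples (small symbols). S100a4 spreads from -0.33 in samples 1 to 3 to 3.91 in samples 4 to 6, where 2 control values were set to 0. S100a13 stays between 0.10 and 0.58.

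Because the deposited values keep their spacing within a set, the differences before the adjustment could be recovered for all 10 members under an assumed model. The model took original values in steps of 0.01 FPKM and gave the gene a shift and a scale factor in each set. A group difference common to all sets was left unscaled. The authors' procedure is not given in the sources used here, so the model itself could not be checked. In samples 1 to 3 the recovered difference was 5.15 FPKM for S100a10, -6.04 for S100a6, -13.99 for S100a11 and -0.217 for S100a13, where the deposited values gave 10.9, 0.418, 6.39 and 2.41. Under this model S100a6, S100a11 and S100a13 were not higher in this set before the adjustment. Only S100a10 of the members was then higher in all 4 sets. In the other sets the recovered differences of S100a11 were 140, 149 and 68.3 FPKM, those of S100a10 were 46.1, 38.7 and 21.4, those of S100a6 were 57.0, 26.0 and 11.8, and those of S100a13 were 13.6, 10.7 and 6.60. Of the 40 recovered differences (10 members in 4 sets), 4 had the opposite sign to the deposited ones, these 3 and S100b in samples 7 to 9.

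The recovered values were also compared with an exact permutation test that relabelled samples only within their set (160000 relabelings, two-sided, p-values not adjusted). The mean difference was 27.8 FPKM for S100a10 (exact p = 7.5e-04), 85.8 for S100a11 (exact p = 0.00341), 7.69 for S100a13 (exact p = 0.0016), 22.2 for S100a6 (exact p = 0.00931), 8.57 for S100a4 (exact p = 0.0142) and -137 for S100a1 (exact p = 0.0449). For S100a16, S100a8, S100a9 and S100b the exact p was 0.501, 0.734, 0.600 and 0.739. On log2(FPKM + 1) of the deposited values, the exact p was 1.75e-04 for S100a10, 6e-04 for S100a11, 3.1e-04 for S100a13 and 0.00676 for S100a6. These members thus had an exact p under 0.05 on the deposited and on the recovered values. Their p was larger on the recovered values, though the scales of the tests differ. S100a1 and S100a4 passed 0.05 in this unadjusted test but not in the test over all genes. Before adjustment their limma p was also under 0.05 (0.0341 and 0.0273), so this contrast reflects the adjustment over all genes.

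**Figure D3:**
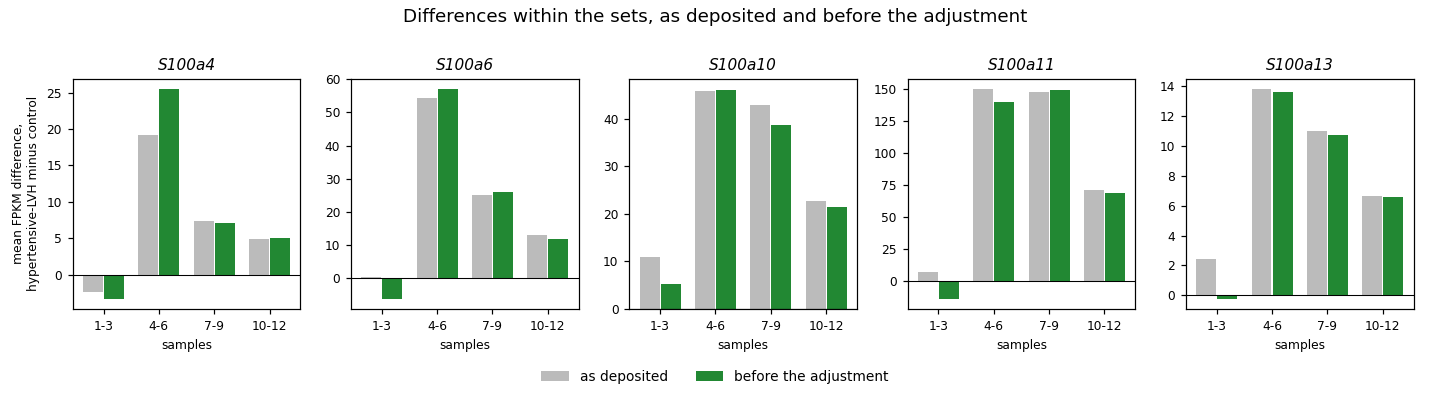
Mean FPKM difference between the hypertensive-LVH and the control group (vertical axis, 1 scale per panel) in each set of 3 and 3 samples. Grey bars are from the deposited values and green bars from the values before the adjustment, as recovered under the assumed model. In samples 1 to 3 the green bars of S100a6, S100a11 and S100a13 lie below 0, and that of S100a10 stands at 5.15.

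Members that work together were then compared from sample to sample. The mean of each group was removed from log2(FPKM + 1), and 12 relations were tested over the 24 samples with 100000 permutations within groups, two-sided and adjusted over the 12. The smallest p these permutations can give is 1e-05. S100a8 and S100a9 moved closely together, with r = 0.965 (permutation p = 1e-05, adjusted 2e-05) and rho = 0.970 (permutation p = 1e-05, adjusted 2.4e-05). Only 0.00713% of all genes had so high an r with S100a8, so that S100a9 was its closest gene in the table. Without the 2 samples farthest from the median r was 0.945, and with the mean of each group in each set removed it was 0.967.

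S100a8 also moved with the mean of the neutrophil markers, S100 genes left out (r = 0.742, permutation p = 5e-05, adjusted 6.67e-05; rho = 0.708, permutation p = 2.3e-04, adjusted 3.07e-04). This r was 0.600 without the 2 farthest samples and 0.883 within the sets. After S100a9, the gene most like S100a8 within groups and sets was Retnlg, a marker of mature neutrophils, with r = 0.934 over 24 samples. Of 15 neutrophil markers, Mpo and Elane had no row in the table used here, and of 10 tested 3 rose and 0 fell by adjusted p, as did 2 and 0 of 5 monocyte markers, where 20.9% of all genes rose and 12.6% fell. The neutrophil markers in the table summed to between 8.60 and 152 FPKM in the hypertensive-LVH group and between -0.788 and 61.3 in the control group.

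S100a4 and S100a6 were another close pair (r = 0.928, permutation p = 1e-05, adjusted 2e-05; rho = 0.916, permutation p = 1e-05, adjusted 2.4e-05), and 0.0570% of genes had so high an r with S100a4. Their r was 0.928 without the 2 farthest samples and 0.862 within the sets. Of the other tested pairs of members, S100a10 and S100a11 had a lower r (r = 0.848, permutation p = 1e-05, adjusted 2e-05; rho = 0.817, permutation p = 1e-05, adjusted 2.4e-05), with 0.780 without the 2 farthest samples and 0.743 within the sets. S100a13 and S100a16 were more loosely related still (r = 0.674, permutation p = 4.7e-04, adjusted 5.64e-04; rho = 0.616, permutation p = 0.00218, adjusted 0.00262), with 0.634 and 0.552, and 7.71% of all genes were as close to S100a13. Pairs of members outside the 12 relations were not tested, and some were as close within the sets, with r = 0.88 for S100a6 and S100a11 and 0.86 for S100a6 and S100a13.

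**Figure D4:**
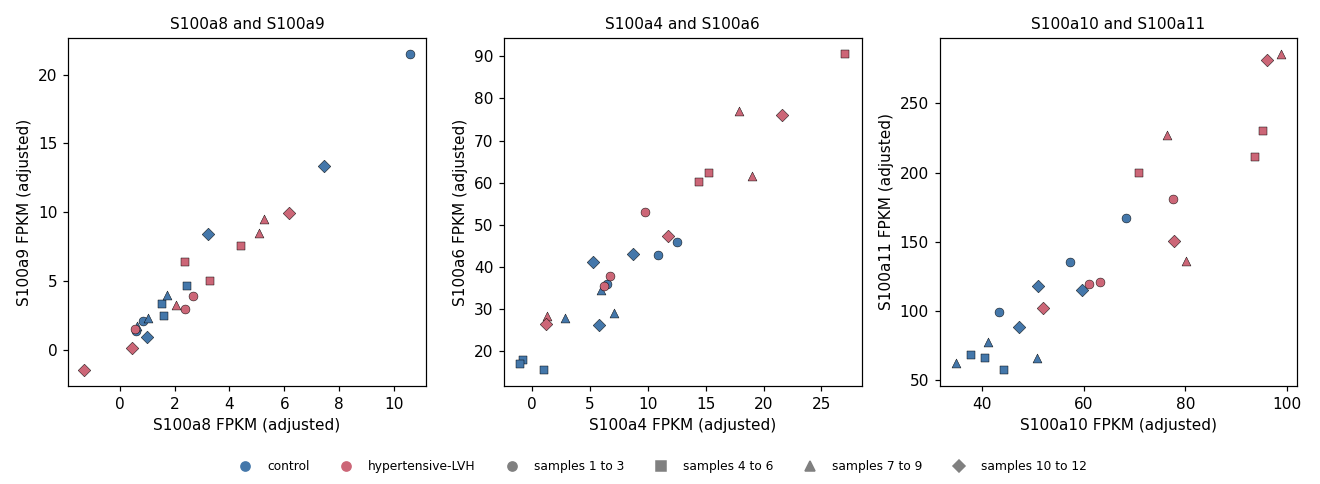
FPKM of S100a9 against S100a8, S100a6 against S100a4 and S100a11 against S100a10 (adjusted values as deposited), with 1 point per sample, colours for the groups and symbols for the sets. S100a8 and S100a9 lie along a line on which the groups are mixed, with 2 controls at the top, while in the other panels hypertensive-LVH samples hold the upper end.

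S100a4 moved with the mean of the macrophage markers (r = 0.795, permutation p = 1e-05, adjusted 2e-05; rho = 0.814, permutation p = 1e-05, adjusted 2.4e-05), with 0.802 without the 2 farthest samples and 0.713 within the sets. S100a6 moved with the mean of the fibroblast markers (r = 0.785, permutation p = 1e-05, adjusted 2e-05; rho = 0.763, permutation p = 1e-05, adjusted 2.4e-05), with 0.774 and 0.785. The median r with all genes was 0.24 for S100a4 and 0.26 for S100a6. S100a4 was not tested against the fibroblast markers, nor S100a6 against the macrophage markers. These lists also held genes that differed between the groups, to be read beside the 20.9% of all genes that rose and the 12.6% that fell. Of 13 macrophage markers, 12 rose and 1 fell by adjusted p, and they summed to between 419 and 1162 FPKM in the hypertensive-LVH and between 303 and 648 in the control group. Of 11 fibroblast markers, 6 rose and 1 fell, with sums from 1333 to 3750 and from 638 to 1854. All 5 red blood cell markers also rose, with sums from 779 to 6443 and from 56.2 to 2949. The part of these cells in the rise of S100a6, S100a10, S100a11 and S100a13 was not tested.

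S100b moved with the mean of the Schwann cell markers (r = 0.824, permutation p = 1e-05, adjusted 2e-05; rho = 0.777, permutation p = 3e-05, adjusted 5.14e-05), with 0.687 without the 2 farthest samples and 0.701 within the sets. Schwann cells wrap the nerves of the heart. Its relation to the adipocyte markers (r = 0.592, permutation p = 0.0038, adjusted 0.00415; rho = 0.569, permutation p = 0.00525, adjusted 0.00573) did not hold without the 2 farthest samples or within the sets, where r was 0.383 without those samples (adjusted permutation p = 0.112) and 0.377 within the sets (adjusted permutation p = 0.255). None of 10 Schwann cell markers passed the test between the groups in limma, as S100b did not.

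S100a1 had no detectable relation to the mean of the cardiomyocyte markers (r = 0.143, permutation p = 0.496, adjusted 0.496; rho = 0.103, permutation p = 0.633, adjusted 0.633), with 0.303 without the 2 farthest samples and 0.377 within the sets. Of 10 cardiomyocyte markers, 6 fell and 0 rose by adjusted p (12.6% and 20.9% of all genes), and their sum was between 37529 and 54397 FPKM in the hypertensive-LVH and between 49595 and 63045 in the control group. The part of the cardiomyocytes in the level of S100a1 was not tested. With the mean of each group in each set removed, the gene most like each remaining member, among 11459 genes over 24 samples, was Syngr1 for S100a1 (r = 0.939), Clec4n for S100a4 (0.923), Rgs10 for S100a6 (0.962), Cnih1 for S100a10 (0.908), Arf4 for S100a11 (0.959), Fuca1 for S100a13 (0.917), Serf2 for S100a16 (0.948) and Cox20 for S100b (0.760).

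Finally, the genes whose products work with S100 proteins were examined. Of 42 tested genes of a list of 45 receptors, binding partners and targets, 16 rose and 5 fell by adjusted p, where 20.9% of all genes rose and 12.6% fell. Of the 42, 7 were upregulated and 0 downregulated DEGs, against 4.52% and 1.4% of all genes. Their median log2 fold change was 0.13, and that of all genes 0.05. The partner of S100A10, Anxa2, rose by 0.87 on the log2 scale (limma adjusted p = 1.7e-04), and that of S100A11, Anxa1, by 0.71 (0.00144). Across samples S100a10 moved with Anxa2 (r = 0.779, permutation p = 3e-05, adjusted 5.14e-05; rho = 0.781, permutation p = 4e-05, adjusted 6e-05), with 0.683 without the 2 farthest samples and 0.682 within the sets, and 0.834% of all genes were as close to S100a10. S100a11 moved with Anxa1 (r = 0.737, permutation p = 4e-05, adjusted 6e-05; rho = 0.786, permutation p = 2e-05, adjusted 4e-05), with 0.729 and 0.700, but 4.89% of all genes were as close to S100a11. Other annexins were divided. Anxa5 rose by 0.35 (4.67e-04), Anxa11 fell by 0.31 (7.79e-05), and Anxa6 had a log2 fold change of 0.06 (0.167).

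Among the plasminogen activators that S100A10 serves at the cell surface, Plat (tissue-type) rose by 0.52 on the log2 scale (limma adjusted p = 0.00109) and the urokinase receptor Plaur by 0.65 (0.00754), while Plau (urokinase) had a value of 0.25 (0.187). The transglutaminase Tgm2, whose substrates include S100 proteins, rose by 0.53 (5.9e-06). Kcnk3, the TASK1 channel that S100A10 is known to bind, fell by 0.38 (4.57e-05). Myh9, the non-muscle myosin that S100A4 takes apart, rose by 0.25 (0.00989). Of the ligands of S100A6, Sugt1 rose by 0.22 (1.16e-04) and Cacybp had a value of 0.11 (0.0871).

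Of the receptors of released S100 proteins, Ager rose by 0.51 (limma adjusted p = 0.0106), but at a mean of 0.659 FPKM and with 3 control values below 0. Tlr4 rose by 0.20 (0.0216) and its adaptor Myd88 by 0.25 (0.0339), while the co-receptor Ly96 had a value of 0.03 (0.858). Bsg, the receptor of S100A9 also known as CD147, fell by 0.27 (0.00119). Cd36, Cd33 and Alcam had values of 0.10, 0.17 and 0.13 and did not pass (0.280, 0.0711 and 0.237). Of the subunits of the NADPH oxidase that calprotectin serves, Ncf1 rose by 0.85 (4.74e-04), and Cybb and Cyba had values of 0.23 (0.163) and 0.26 (0.0781).

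Of the targets of S100A1 in the cardiomyocyte, Ryr2, the ryanodine receptor, had a log2 fold change of 0.01 (limma adjusted p = 0.921), whereas Atp2a2, which encodes SERCA2a, fell by 0.33 (3.29e-04) and Pygm, the muscle glycogen phosphorylase, fell by 0.43 (1.26e-04). Capzb, a subunit of the actin-capping protein CapZ, rose by 0.11 (0.0332), and the kinase gene Stk38, a target of S100B, by 0.18 (0.0107). The cargoes of S100A13, Fgf1 and Il1a, had values of -0.13 (0.158) and -0.07 (0.157). Of the partner genes named above, Anxa2 (limma adjusted p = 0.0398), Plaur (0.0458) and Ncf1 (0.0195) also passed the interaction of group and set. So did 7.49% of all genes.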

How the data were processed

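The authors sequenced oligo(dT)-enriched mRNA of the left ventricle as Illumina paired ends. The submitters' processing notes name Bowtie2, HISAT and RSEM; versions, genome build and strand of the kit are not given in the sources used here. The study had 16 mice per group, of which 12 per group were analysed here and the others were not. The deposited values are called FPKM by the authors, but 2741 of them (0.766%) are negative, so they were treated as a normalized score. Exact ties between samples (at least 100 tied genes) showed 4 sets within which each gene had been shifted and scaled. How this was done is not given in the sources used here, and the spread behind each p-value is that of the adjusted values.

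Negative values were set to 0 for log2(FPKM + 1), with a pseudocount of 1, and kept in FPKM means and SD. The fit took genes averaging 0.1 FPKM or more and used limma 3.58.1 (trend, R 4.3.3), and DEGs were called with the thresholds of the study (adjusted p under 0.05, absolute log fold change over 0.5, read here as log2 since its base is not given in the sources used here). Differences before the adjustment were recovered from steps of 0.01 FPKM with Python 3.11.15, numpy 2.4.6, pandas 2.3.3 and scipy 1.17.1. This recovery was added after the data were seen, and its model of the adjustment is an assumption. Gene positions came from GENCODE vM21 (GRCm38), which holds 99.8% of the symbols, and are not from the authors' files. The 10 members, the partner list and the marker lists were chosen with earlier results of these data known. All members were named, with the partners of stated role whether or not they passed (some items are not reported here) and the gene most like each member. Replicate numbers follow the labels. The alternatives were other pseudocounts, filters and scalings, leaving out each sample or set, a block for the replicate number or the set, and an exact test within the sets. Protein sequences were not used here.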

Additional observations from a re-analysis of the deposited data

Results flagged for a closer look

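For 3 members the difference between the hypertensive-LVH and the control group differed between the sets of samples, by the interaction of group and set in limma, adjusted over all genes. The adjusted p was 0.0337 for S100a4, 0.0322 for S100a6 and 0.0294 for S100a11. For each of them the log2 difference was lowest in samples 1 to 3 and highest in samples 4 to 6. The sets are known only from the deposited values, each holds 3 mice per group, and 7.49% of all genes passed the same test.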

How the results depend on the processing

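Of 240 values of the members with 1 sample left out, 226 kept their direction and their side of the threshold, and of 159 values under other settings 144 did. In this count the exact p-values, not adjusted over genes, were set against the adjusted p of the main limma test. S100a10, S100a11 and S100a13 kept direction and side in every one of these values. Their log2 fold changes ranged from 0.58 to 0.84, from 0.76 to 1.31 and from 0.27 to 0.43 over the other settings on the log2 scale. The cause of the changes below was not tested. After quantile normalization S100a1 was at 0.0016 and S100b at -0.085, and after median-ratio scaling S100b was at -0.0027. Leaving out samples 1 to 3 gave 1.59 for S100a4 (adjusted p = 0.0419), 0.12 for S100a9 and 4 members called. Leaving out samples 4 to 6 gave 0.36 for S100a6 (adjusted p = 0.199), -0.18 for S100b, 2 members called and 4 partner genes called in place of 7; median-ratio scaling also gave 4 partner genes. S100a8 was at -0.20 without samples 7 to 9 and S100a9 at 0.41 without samples 10 to 12. On FPKM without a log, S100a4 was higher by 7.27 (adjusted p = 0.0303). There 5 members were called by adjusted p alone, the rule by which 4 passed in the main analysis. The exact test within the sets gave p = 0.0496 for S100a1 at -0.18 and 0.0477 for S100a4 at 1.11. The differences recovered under the assumed model were -137 FPKM for S100a1 (exact p = 0.0449), 8.57 for S100a4 (exact p = 0.0142) and -0.706 for S100a8 (exact p = 0.734). With 1 sample left out, the values ranged from -0.20 to -0.14 for S100a1, from 0.90 to 1.32 for S100a4, from -0.18 to 0.14 for S100a9 and from -0.042 to 0.053 for S100b, and 3 to 4 members were called. The relation of S100b to the adipocyte markers had r = 0.377 within the sets and 0.383 without the 2 farthest samples. Over all settings with the fold change threshold on the log2 scale, 552 to 1489 genes were called, with 831 in the main analysis. Without that threshold the count was 4697, and it was 4616 on FPKM without a log. With a block for the replicate number, 3 members and 715 genes were called. The correlation of same-numbered samples ranged from -0.557 to -0.001 over 12 pairs and 0 exceeded 0.1. Same-numbered samples share a set, and the adjustment within sets can itself lower this correlation. Whether the numbers pair the samples therefore cannot be decided from it. S100b could not be fitted with a minimum mean of 1 FPKM. The depth of the libraries is not known, and S100a4, S100a8, S100a9 and S100b, with values near 0, are the least certain members.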
